A study of Homo sapiens with 19 samples.

Results

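The 8 genes described here encode proteins of the primary (azurophil) granules of neutrophils or are made alongside them: MPO, ELANE, PRTN3, AZU1, CTSG, CFD, SRGN and LYZ. They were chosen by name, from knowledge of the granule and not by a measured value, though with earlier results of these data known. They are 8 of the 20033 protein-coding genes of the GENCODE v44 annotation (hg38) on chromosomes 1 to 22, X and Y. In 4 lines of leukaemia cells, chromatin immunoprecipitation and sequencing was used to map H3K27ac, histone H3 acetylated at lysine 27, which marks promoters and enhancers in use. The cells of HL-60, Molm13 and OCI-AML3 are labelled as acute myeloid leukaemia (AML) and K562 as chronic myelogenous leukaemia. HL-60 and Molm13 were untreated. OCI-AML3 and K562 had been transduced with dCas9-KRAB-mCherry, a dead Cas9 fused to a repressor domain, then with an empty control in place of the single guide RNA and a BFP reporter, and had been sorted for both reporters, so line and vector cannot be told apart. Of the 19 samples of the series, 14 were not analysed here.

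Primary granules are built in promyelocytes, the stage at which the genes of their cargo are at their most active, and the proteins are then stored until the neutrophil matures. MPO, myeloperoxidase, makes hypochlorous acid. ELANE (neutrophil elastase), PRTN3 (proteinase 3) and CTSG (cathepsin G) are serine proteases, and AZU1 (azurocidin) is a homologue of them without catalytic activity. CFD is complement factor D, a serine protease of the alternative pathway, SRGN is serglycin, the proteoglycan core to which cargo binds, and LYZ is lysozyme, which cleaves bacterial cell walls. Protease is thus an apt name for ELANE, PRTN3, CTSG and CFD alone. AZU1, PRTN3, ELANE and CFD lie in this order, all on the plus strand, in one 42.8 kb stretch of chromosome 19 (positions 825097 to 867884), so that windows and sometimes single peaks are shared between them. MPO lies on chromosome 17 (58269855 to 58280935, minus strand), CTSG on chromosome 14 (24573518 to 24576250, minus strand), SRGN on chromosome 10 (69088103 to 69104805, plus strand) and LYZ on chromosome 12 (69348381 to 69354234, plus strand).

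The promoters of 5 of the genes, MPO, ELANE, PRTN3, AZU1 and CTSG, had an H3K27ac peak within 500 bp of the canonical start in the 3 AML lines and not in K562, and their sequences are shown to let the letters of these promoters be compared. The 250 bases before the start of the canonical transcript are given, 5′ to 3′ on the strand of the gene and in hg38 coordinates, for 4 of these 5 genes. Capitals mark matches, on either strand, to 5 short motifs: TTGCNNAA for the core of a C/EBP site, GAGGAAG for PU.1, TGTGGT for RUNX, CAACNG or TAACNG for MYB, and TATAAA for the TATA box. The first 4 are bound by factors known to act at granule genes. ELANE is left out because the last part of its 250 bases is also annotated as the untranslated exon of another ELANE transcript.
MPO (chr17:58280936-58281185, minus strand): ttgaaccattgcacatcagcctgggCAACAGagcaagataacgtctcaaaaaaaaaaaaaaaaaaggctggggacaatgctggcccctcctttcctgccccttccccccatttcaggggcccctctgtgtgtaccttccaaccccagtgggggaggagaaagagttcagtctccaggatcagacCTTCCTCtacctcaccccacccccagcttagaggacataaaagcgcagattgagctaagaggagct
AZU1 (chr19:827587-827836, plus strand): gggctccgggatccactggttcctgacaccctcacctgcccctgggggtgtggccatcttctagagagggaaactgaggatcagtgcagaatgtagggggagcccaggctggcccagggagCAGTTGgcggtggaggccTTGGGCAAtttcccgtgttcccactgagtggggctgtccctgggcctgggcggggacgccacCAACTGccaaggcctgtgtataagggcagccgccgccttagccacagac
PRTN3 (chr19:840749-840998, plus strand): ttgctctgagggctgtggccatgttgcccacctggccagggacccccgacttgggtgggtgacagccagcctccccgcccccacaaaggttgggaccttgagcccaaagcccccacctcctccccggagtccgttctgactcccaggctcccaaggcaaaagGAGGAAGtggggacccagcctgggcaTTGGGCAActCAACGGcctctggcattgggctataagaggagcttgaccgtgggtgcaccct
CTSG (chr14:24576251-24576500, minus strand): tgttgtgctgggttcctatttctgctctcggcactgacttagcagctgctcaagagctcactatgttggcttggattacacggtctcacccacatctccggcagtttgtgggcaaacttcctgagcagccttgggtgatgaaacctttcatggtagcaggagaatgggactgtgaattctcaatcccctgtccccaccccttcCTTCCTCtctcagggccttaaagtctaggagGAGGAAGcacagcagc

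Promoters were compared for 7 of the genes, all but LYZ. The PU.1 motif was found in 4 of the 7, those of MPO, ELANE, PRTN3 and CTSG, and in 11.7% of all protein-coding promoters of the same length. The MYB motif was found in 4 of the 7, those of MPO, ELANE, PRTN3 and AZU1, and in 36.4% of all. The C/EBP core was found in PRTN3 and AZU1 (7.12% of all), both times on the opposite strand, so that the strand of the gene reads TTGGGCAA. None of the 7 held the RUNX motif (8.87% of all) or TATAAA (9.34% of all), and CFD and SRGN held none of the 5 motifs. Only the letters given above were searched, so variants of a motif, such as a TATA box with other letters, were not counted. All 7 promoters had fewer CpG dinucleotides than the median promoter, 2 (MPO and SRGN) to 11 (ELANE and CFD) against a median of 18. Their GC content ran from 43.6% in SRGN to 70.8% in CFD, around the 63.2% of the median promoter.

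ELANE and PRTN3 resembled each other over the last bases before the start. GAGGAAG began at base -90 in ELANE and at base -88 in PRTN3, counted from the start so that -1 is the base before it, and CAACGG began at base -53 and at base -52. Both promoters also held the same 16 bases, gggctataagaggagc, from base -35 to base -20. Among the 20033 promoters this run occurred, on either strand, in these 2. It was the longest run shared in any of the 21 pairs among the 7 genes, which shared 7 bases at the least and 9 at the median. The last 10 of the 16 bases, taagaggagc, also lay in MPO, from base -11 to base -2, and occurred in 14 of the 20033 promoters. In AZU1 a match to the MYB motif, CAACTG, began at base -49. This comparison of runs was added after the sequences had been seen. A match is a description of the letters in the window and says nothing about binding in these cells.

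A gene was counted as marked when an H3K27ac peak lay within 500 bp of any of its annotated transcription start sites (TSS). In HL-60, 6 of the 8 genes were marked, beside 44.7% of all protein-coding genes. In Molm13 and in OCI-AML3 all 8 genes were marked, beside 53.9% and 57.7% of all genes. In K562, 5 of the 8 were marked, beside 55.9% of all genes. HL-60 lacked a peak at CFD and at LYZ. K562 lacked one at MPO, ELANE and CTSG, and its peaks at PRTN3 and AZU1 were not at the canonical start. With the canonical TSS alone, the counts were 6 of 8 in HL-60 (41.0% of all genes), 8 of 8 in Molm13 (49.9%), 8 of 8 in OCI-AML3 (54.0%) and 3 of 8 in K562 (52.1%), where CFD, SRGN and LYZ were left. Each line was represented by 1 library, so that no difference between lines could be tested.

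MPO, ELANE, PRTN3, AZU1 and CTSG were marked at the canonical start in the 3 AML lines and not in K562. This pattern was held by 5 of the 8 members and by 388 of all 20033 genes (1.94%). With any annotated TSS it was held by 3 members, MPO, ELANE and CTSG, and by 2.22% of all genes. Another pattern, a mark in Molm13, OCI-AML3 and K562 but not in HL-60, was that of CFD and LYZ, with 6.87% of all genes at the canonical TSS. SRGN was marked in all 4 lines at its canonical start, as were 37.4% of all genes.

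**Figure D1:**
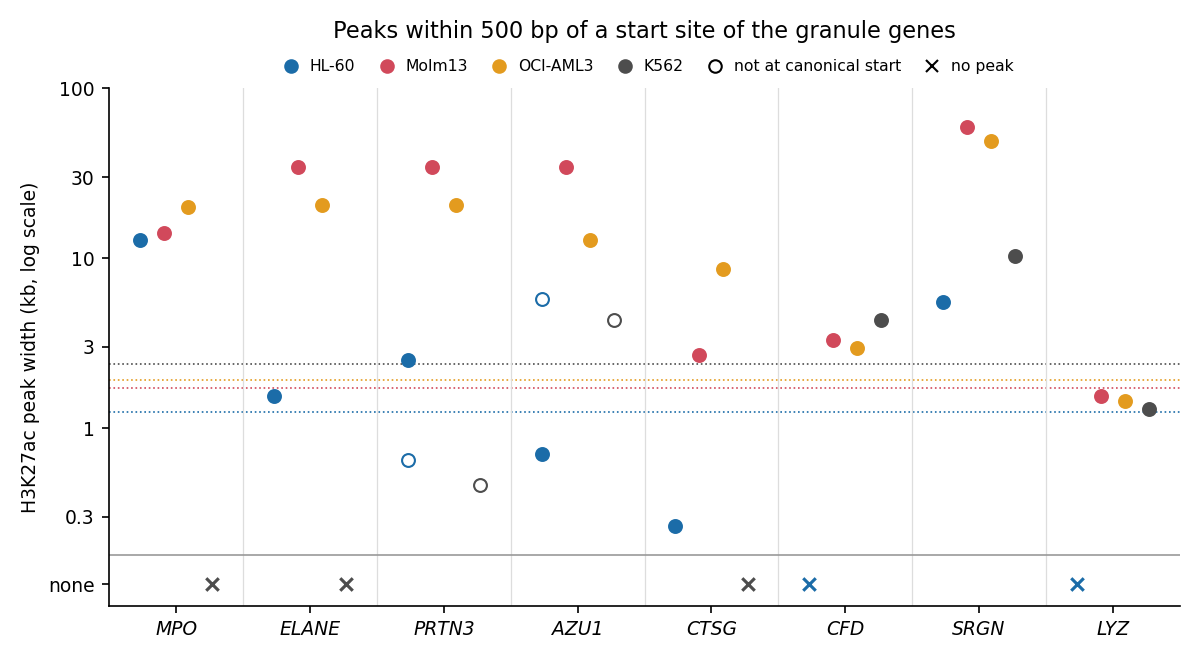
Widths in kb (log scale) of the H3K27ac peaks within 500 bp of a TSS of each gene, 1 point per peak, in HL-60, Molm13, OCI-AML3 and K562, with open circles for peaks that miss the canonical TSS, crosses for genes with no such peak, and dotted lines at the median width of all peaks at protein-coding TSSs of the same list. Molm13 and OCI-AML3 have points for all 8 genes, SRGN is the widest at 59.3 and 48.6 kb, K562 has crosses at MPO, ELANE and CTSG, and HL-60 at CFD and LYZ.

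The lists differed in length and in how wide and strong their peaks were, so each peak was read within its own list. They held 20772 (HL-60), 35136 (Molm13), 37571 (OCI-AML3) and 37424 (K562) peaks on these chromosomes, covering 24.1, 58.2, 70.2 and 76.8 Mb. The peaks at protein-coding TSSs were narrowest in HL-60, with a median width of 1240 bp, followed by Molm13 with 1722 bp, OCI-AML3 with 1910 bp and K562 with 2383 bp. Their median fold enrichment over the local background, as given by the authors, was in the same order of lines 4.82, 5.65, 3.72 and 3.45. How this value was taken over the length of a broad peak was not stated, so it is not read as the height of a summit. A percentile given for a peak below is its place among these TSS peaks of its list. Read numbers were not given, so the depth behind a missing peak was unknown, and an absent peak says only that none was called. As a check of the labels, TSS peaks were counted at markers, to be read beside the shares of all genes marked in each line, given above. Of 8 erythroid markers, all 8 were marked in K562, and EPOR alone in each AML line. Of 8 myeloid markers, 7 were marked in OCI-AML3, 5 in Molm13, 3 in HL-60 and 3 (SPI1, CD33 and CSF3R) in K562. CD14, a monocyte marker, was marked in no line, and ITGAM and FCGR1A in OCI-AML3 alone.

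The 3 AML lines each carried a broad peak across the start of MPO. It was 12709 bp wide with a fold enrichment of 6.86 in HL-60, 14058 bp with 7.27 in Molm13 and 20070 bp with 4.80 in OCI-AML3. In HL-60 it was the 5th widest of all peaks of the list (q = 2.10e-13), and its fold enrichment stood at the 80.7 percentile. In Molm13 and OCI-AML3 the widths stood at percentiles 99.39 and 99.60, and the fold enrichments at 71.5 and 83.6. The peak at MPO thus had a higher percentile by width than by fold enrichment in each of the 3 lists. It ran 5753 bp upstream and 6955 bp downstream of the start in HL-60, and mostly upstream in the other 2 lines, by 10520 bp in Molm13 and 15996 bp in OCI-AML3.

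K562 had no peak within 46935 bp of the canonical start of MPO. The nearest lay upstream at the start of TSPOAP1, was 14258 bp wide with a fold enrichment of 5.10, and had counterparts at TSPOAP1 in the 3 AML lines. In the 100 kb around the MPO start, 3.07 kb lay under peaks in K562, at the 42.1 percentile of all genes, against 21.2 kb in HL-60 (99.9 percentile), 42.0 kb in Molm13 (99.88) and 40.0 kb in OCI-AML3 (99.63). Beside the MPO peak, a stretch from -30.1 to -18.7 kb of the start (upstream, at TSPOAP1) and one from 46.3 to 49.5 kb downstream, inside LPO, the gene of the related lactoperoxidase, carried peaks in the 3 AML lines and not in K562.

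The stretch from AZU1 to CFD was covered most in Molm13. There, a single peak of 34162 bp (chromosome 19, 820070 to 854231) ran from the neighbouring gene PLPPR3 across AZU1 and PRTN3 and over the start of ELANE. Its fold enrichment of 13.3 stood at the 98.4 percentile, and 4 of the 35136 peaks of the list were wider (q = 1.61e-34). The 3 genes therefore have 1 and the same peak in this line, and its values are not 3 measurements.

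In OCI-AML3 the same stretch was held by a pair of peaks. A peak of 12802 bp with a fold enrichment of 6.71 lay over AZU1, and a peak of 20486 bp with 4.25 lay over PRTN3 and the start of ELANE. The AZU1 peak was among the strongest of its list, at the 99.4 percentile by fold enrichment (rank 91 of 37571, q = 1.37e-35), whereas the peak shared by PRTN3 and ELANE stood at the 68.3 percentile by fold enrichment and at 99.62 by width.

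HL-60 held the stretch in pieces. At AZU1, a peak of 706 bp with a fold enrichment of 7.80 covered the canonical start, and one of 5707 bp with 6.09 covered the alternative first start and that of PLPPR3. PRTN3 had a peak of 2529 bp with 4.45 at its canonical start and one of 646 bp with 3.27 at an internal start. ELANE had 1 peak of 1547 bp with 4.32, which ended 60 bp past the canonical start. By width percentile the HL-60 peaks ran from 19.6 (the small PRTN3 peak) to 99.02 (the wider AZU1 peak).

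In K562 the start of ELANE had no peak, and the nearest lay 6951 bp downstream, at CFD. The K562 peak counted for AZU1 was 4354 bp wide with a fold enrichment of 4.09 and ended 22 bp before the alternative first start of AZU1 and 2762 bp before the canonical one. It lay over the start of PLPPR3, and was counted for AZU1 by its distance alone. The K562 peak counted for PRTN3 was 459 bp wide with a fold enrichment of 2.52 (q = 1.45e-02), 369 bp from an internal start and 2711 bp past the canonical one, at the 4.95 percentile by width. Neither peak overlapped a start of the gene it was counted for.

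From the first start of AZU1 to the end of CFD, peaks covered 11.0 kb of 42.8 kb in HL-60 (25.8%, 9 peaks), 32.4 kb in Molm13 (75.8%, 2 peaks), 30.5 kb in OCI-AML3 (71.3%, 3 peaks) and 4.79 kb in K562 (11.2%, 2 peaks). The Molm13 and OCI-AML3 peaks shared 93.8% of the bases that either covered there, beside 47.2% over the whole genome. All the HL-60 bases there lay within the Molm13 peaks (100.0%, beside 67.9% over the whole genome), and 98.1% within those of OCI-AML3 (72.6%). Peaks of Molm13 and of OCI-AML3 covered most of this stretch, which by itself raises such shares above those over the genome. HL-60 and K562 shared 0.482% of the bases either covered in the stretch, beside 14.6% over the whole genome.

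**Figure D2:**
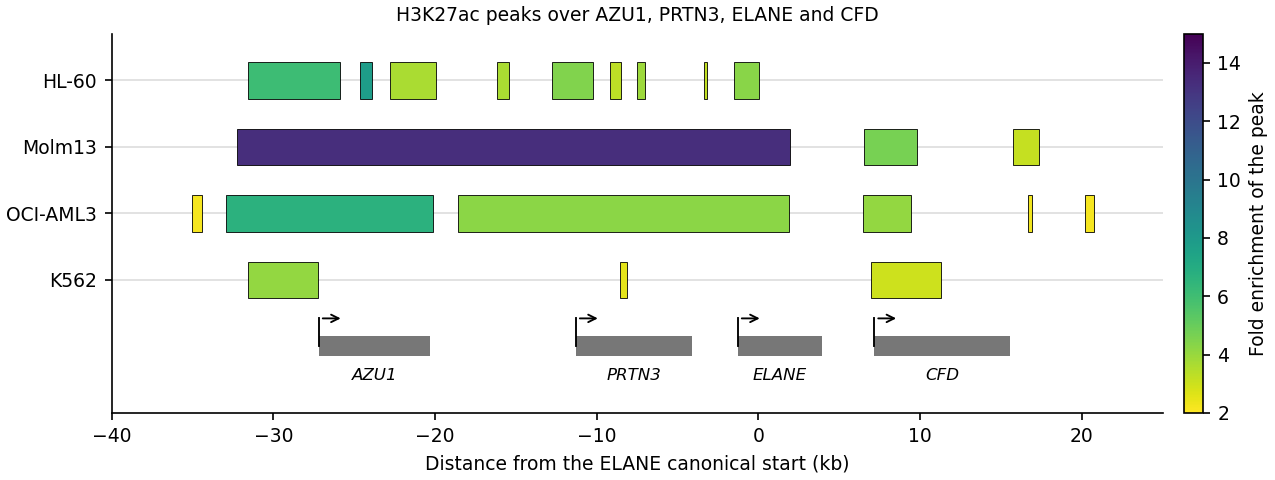
H3K27ac peaks (boxes, coloured by fold enrichment) in the 4 lines over AZU1, PRTN3, ELANE and CFD, by distance in kb from the canonical start of ELANE, with gene bodies in grey and arrows at the first annotated start of each gene (peaks farther out are not drawn). One Molm13 peak of 34.2 kb and a pair of OCI-AML3 peaks of 12.8 and 20.5 kb cover the ground that HL-60 fills with 9 peaks, and K562 has peaks beside AZU1, inside PRTN3 and at CFD.

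CFD, the last gene of the stretch, did not go with its neighbours. Its peak was 3308 bp wide with a fold enrichment of 4.65 in Molm13, 2954 bp with 4.11 in OCI-AML3 and 4334 bp with 3.0 in K562. In HL-60 no peak was called there, and the nearest was the ELANE peak, 7301 bp upstream. The fold enrichments at CFD stood at the 34.0 (Molm13), 63.5 (OCI-AML3) and 28.4 (K562) percentiles. In Molm13 the CFD peak was separate from the 34162 bp peak that covered the other 3 genes.

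CTSG, which lies apart from the chromosome 19 genes and next to the granzyme gene GZMH, was marked in the 3 AML lines with unequal peaks. The OCI-AML3 peak was 8658 bp wide with a fold enrichment of 4.91 (width percentile 97.5). The Molm13 peak was 2677 bp wide with 5.23 (74.0). The HL-60 peak was 264 bp wide with 3.84 (2.1) and began 431 bp upstream of the start without reaching it. The HL-60 call at CTSG therefore rests on a peak near the lower end of widths in its list (q = 2.77e-04), and it is lost when the peak must overlap the start. OCI-AML3 had 3 more peaks within 50 kb of CTSG, and HL-60 and Molm13 had none besides the one at the start. K562 had no peak within 50 kb, and the nearest was 111286 bp away. GZMH had no TSS peak in any line.

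SRGN carried the widest peaks of the 8 genes in Molm13, OCI-AML3 and K562. In Molm13 its peak of 59338 bp with a fold enrichment of 8.55 was the widest of all 35136 peaks (chromosome 10, 69044033 to 69103370). In OCI-AML3 its peak was 48570 bp wide with 5.01, and 4 of 37571 peaks were wider. In K562 it was 10304 bp wide with 3.8 (width percentile 97.0), and in HL-60 5555 bp with 6.14 (98.9). The Molm13 peak began 44070 bp upstream of the start and ended 15267 bp downstream. HL-60 had 6 separate peaks over that upstream stretch, and K562 had 2, both small, at 968 and 324 bp. Acetylation upstream of SRGN thus extended far in the 3 AML lines, whereas K562 had it mainly at the start and over the gene, where its peak reached 8059 bp downstream.

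LYZ had peaks of ordinary size. They were 1547 bp wide with a fold enrichment of 4.56 in Molm13, 1442 bp with 3.56 in OCI-AML3 and 1299 bp with 3.51 in K562, with width percentiles of 43.4, 33.3 and 23.6. HL-60 had none at the start, and its nearest peak lay 11253 bp downstream at YEATS4, which was marked in all 4 lines. Upstream of LYZ, a stretch from -12.4 to -4.67 kb of the start carried peaks in Molm13 (6900 bp, fold enrichment 3.84) and OCI-AML3 (6249 bp, 3.02) and not in the other 2 lines. A further stretch from -20.5 to -15.7 kb carried a peak in all 4 lines, HL-60 included (1011 bp, 3.43).

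**Figure D3:**
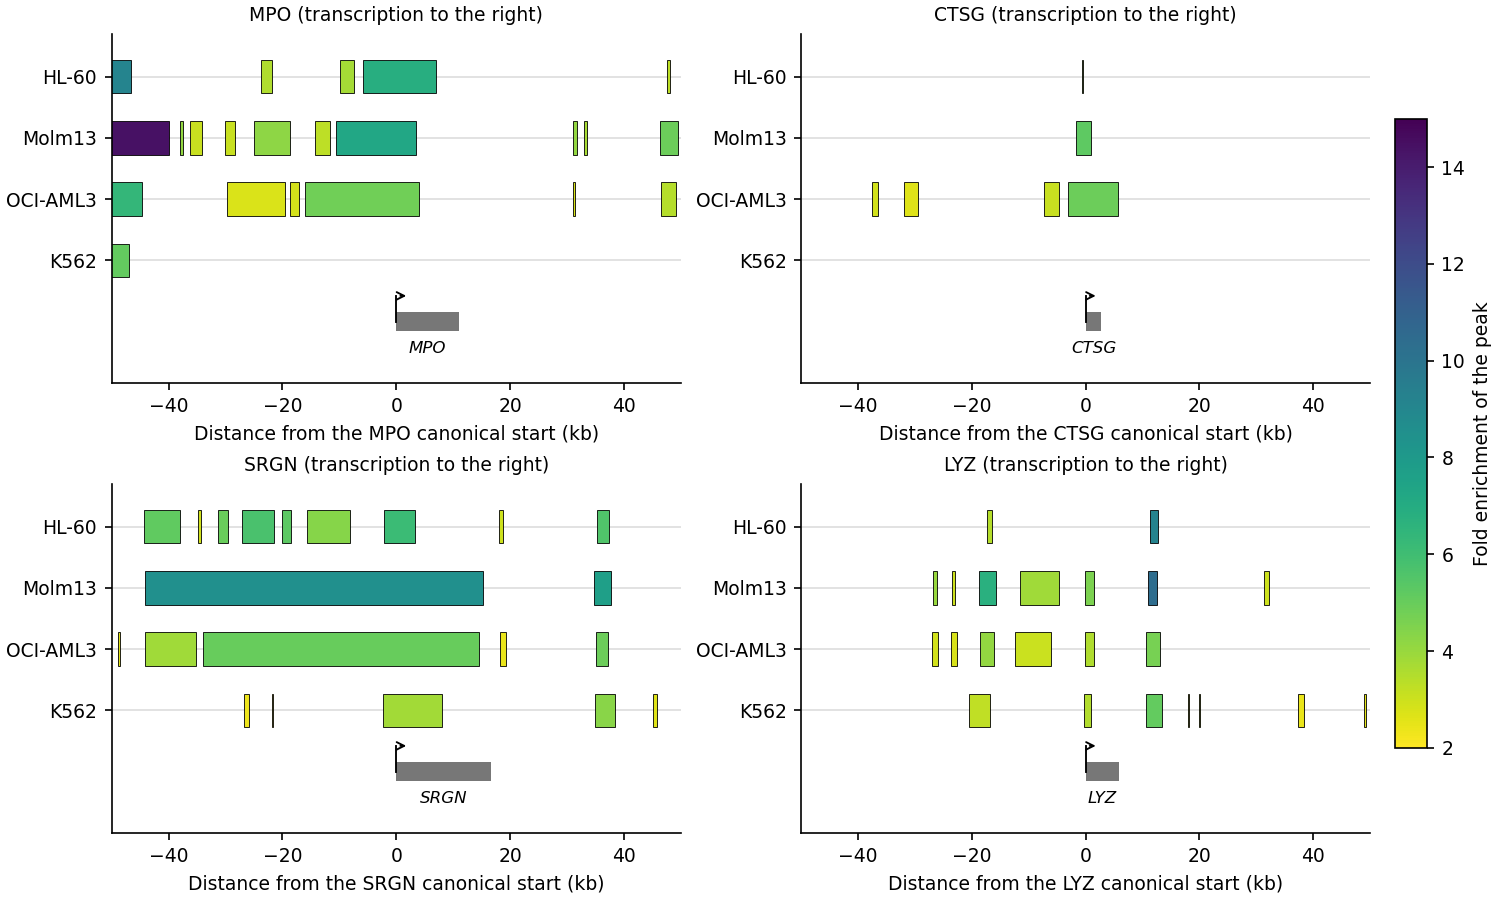
H3K27ac peaks (boxes, coloured by fold enrichment) in the 4 lines within 50 kb of the canonical starts of MPO, CTSG, SRGN and LYZ, by distance in kb with transcription to the right and gene bodies in grey (peaks that run past the window end at its edge). At MPO and CTSG the K562 track has no peak at the start, at SRGN Molm13 has a single peak of 59.3 kb, and at LYZ the downstream peak at YEATS4 is in all 4 tracks.

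By fold enrichment, the 8 genes spread widely within a list. In Molm13 the fold enrichment percentiles ran from 32.3 (LYZ), 34.0 (CFD) and 43.5 (CTSG) to 71.5 (MPO), 83.0 (SRGN) and 98.4 (the peak shared by AZU1, PRTN3 and ELANE). In OCI-AML3 they ran from 44.1 (LYZ) to 99.4 (AZU1), and in K562 from 7.77 (PRTN3) to 80.1 (the peak beside AZU1). In HL-60 they ran from 10.7 (the small PRTN3 peak) to 88.3 (the small AZU1 peak at the canonical start). A peak counted for AZU1 stood highest of the 8 genes by fold enrichment percentile in each of the 4 lists, though it was shared with PRTN3 and ELANE in Molm13 and lay beside the gene in K562. The order of the other genes by fold enrichment changed from list to list, and with 1 library a line it is unknown which neighbours in an order would hold in a replicate. By width, MPO stood at 99.39 or above and SRGN at 98.9 or above in each AML line.

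**Figure D4:**
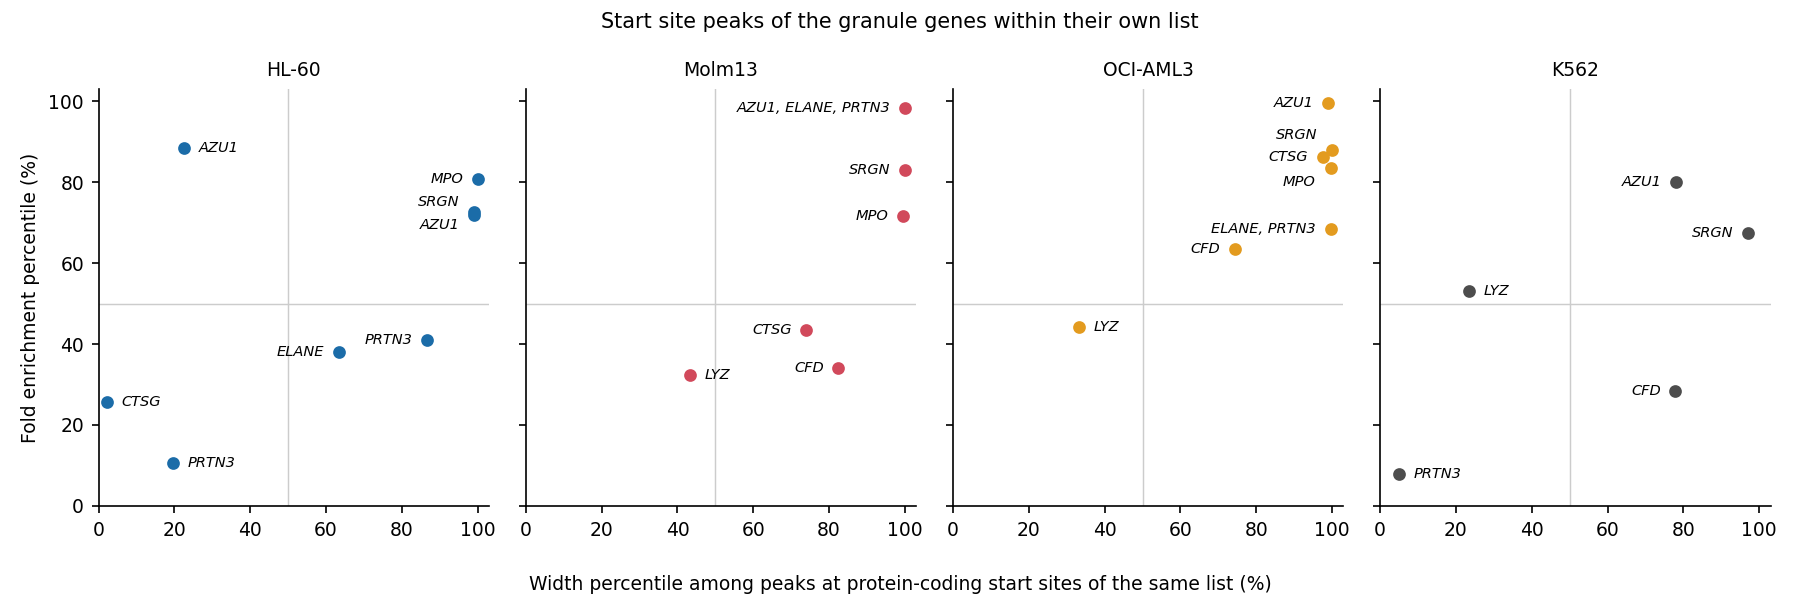
Place of each TSS peak of the 8 genes among the peaks at protein-coding TSSs of its own list, by width (x axis, percentile) and by fold enrichment (y axis, percentile), 1 panel per line, 1 point per peak and grey lines at the middle of each axis. MPO and SRGN lie at the right edge in the AML lines, LYZ lies left of the middle wherever it has a peak, and the peaks counted for AZU1 lie at 72.0 or above by fold enrichment in all 4 panels.

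Most of the genes also had wide acetylation around them. Within 50 kb of any TSS, a peak was found for all 8 genes in HL-60 (75.6% of all genes), Molm13 (81.8%) and OCI-AML3 (82.0%) and for 7 of 8 in K562 (78.6%), CTSG being the exception. The number of kb under peaks in the 100 kb around the canonical start separated the genes more than this count did. At SRGN, HL-60 had 31.8 kb, Molm13 62.3, OCI-AML3 61.0 and K562 15.7, at percentiles 99.99, 100.0, 99.98 and 85.4 of all genes. CTSG was at the other end, where HL-60 had 0.264 kb, Molm13 2.68, OCI-AML3 15.0 and K562 0, at percentiles 30.2, 46.5, 90.8 and 0. At LYZ, the same lines had 2.52, 15.1, 14.4 and 9.71 kb, at percentiles 66.1, 91.8, 89.8 and 70.9.

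The windows of AZU1, PRTN3, ELANE and CFD overlap, so their values are not independent. They held 12.9 to 20.2 kb in K562, 16.4 to 19.7 kb in HL-60, 40.7 to 43.2 kb in Molm13 and 39.7 to 50.5 kb in OCI-AML3. In the AML lists these stood between the 99.5 and the 99.9 percentile, and in K562 between 79.4 and 91.5. In every list some of these windows also took in peaks at the starts of PTBP1 and MED16, in OCI-AML3 one of 12792 bp at PTBP1. In K562 some also took in peaks at the start of R3HDM4, of which the widest had 15772 bp.

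**Figure D5:**
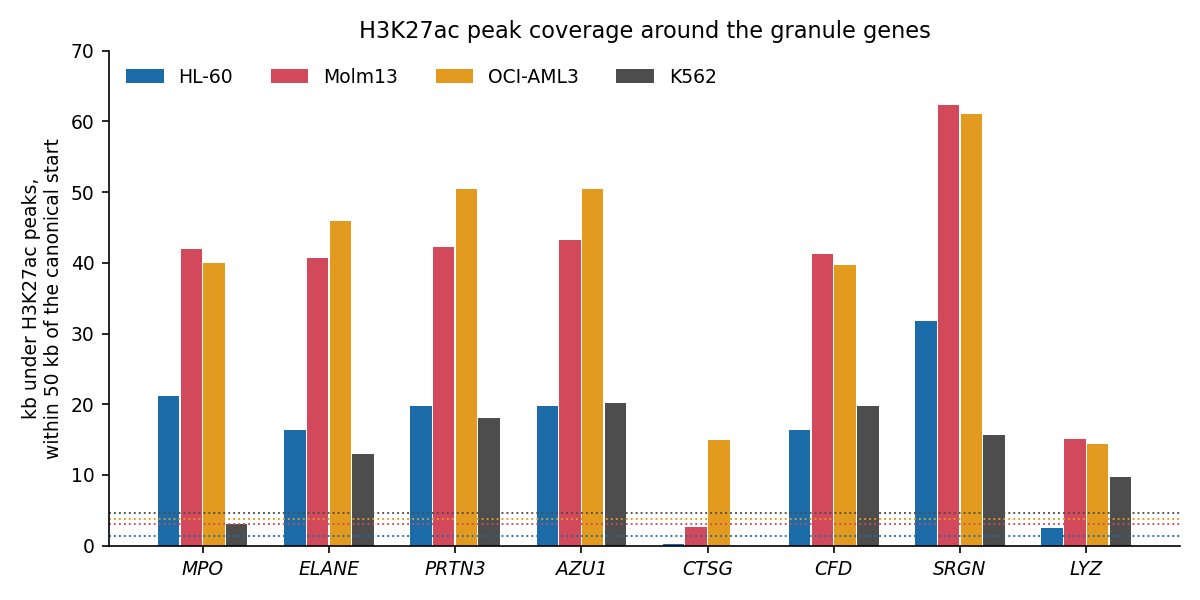
Kb under H3K27ac peaks within 50 kb on either side of the canonical start of each gene (bars, 1 library each), in the 4 lines, with dotted lines at the median of all protein-coding genes in the same list. The medians lie between 1.38 and 4.56 kb, Molm13 and OCI-AML3 reach 39.7 kb or more at MPO, the 4 genes of the cluster and SRGN, and K562 lies under its median at MPO and CTSG.

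Peaks of the 4 lists were joined into 43 stretches over the 5 loci, 544 kb in all. Of these, 21 were covered in 1 line, 6 in 2, 8 in 3 and 8 in all 4. A line was counted for a joined stretch when it had any peak in it, however short. The 8 stretches covered in all 4 lines lay at SRGN and VPS26A, at PTBP1, across AZU1, PRTN3 and ELANE and at MED16, at TSPOAP1, at YEATS4 and upstream of LYZ, and 5 of them held the start of a neighbouring gene and of no member. In the stretch across AZU1, PRTN3 and ELANE, K562 had only the 4354 bp peak beside AZU1 and the 459 bp peak inside PRTN3, and none at ELANE. In 4 stretches, 3 at MPO and 1 at CTSG, the 3 AML lines had peaks and K562 had none, and 8 were covered in K562 alone. Stretches were not joined in this way over the rest of the genome. Whether these counts differ from those of other loci is therefore unknown. Over the windows of the 8 genes, Molm13 and OCI-AML3 shared 71.4% of the bases that either covered (47.2% over the genome). Molm13 and K562 shared 17.4% (20.4%), OCI-AML3 and K562 17.7% (22.4%), and HL-60 and K562 19.7% (14.6%). Of the bases covered in HL-60, 92.2% were also covered in Molm13 (67.9% over the genome) and 95.0% in OCI-AML3 (72.6%), which covered more than HL-60 did.

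Other genes of the granule system were counted by the same rule of a peak within 500 bp of a TSS. By this rule, the share of all genes marked ran from 44.7% (HL-60) to 57.7% (OCI-AML3), as given above for each line. Each count of the lists below is to be read beside the share of its line, and no list was tested against it. Of 7 further genes of granulocyte granule cargo, 4 were marked in HL-60 and 1 in K562, against 5 each in Molm13 and OCI-AML3. PRSS57, the gene of a further neutrophil serine protease, had peaks of 355 bp in HL-60, 11667 bp with a fold enrichment of 10.6 in Molm13 and 8159 bp with 4.24 in OCI-AML3, and none in K562. BPI, which binds bacterial endotoxin, RNASE2, an eosinophil ribonuclease, and CST7, a cystatin, were likewise marked in the 3 AML lines and not in K562. RNASE3 was marked in Molm13 and OCI-AML3, EPX in no line, and PRG2 in K562 with a peak of 552 bp.

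Of 9 lysosomal proteins that azurophil granules also hold, 7 were marked in HL-60 and all 9 in the other 3 lines, among them CD63, a membrane protein of the granule, in all 4. Of 12 genes of secondary and tertiary granules, which are filled at later stages, 1 each was marked in HL-60 and K562, against 3 in Molm13 and 4 in OCI-AML3. LTF, LCN2, MMP8 and MMP9 were marked in no line, and CAMP, the cathelicidin gene, was marked in the 3 AML lines with peaks of 677 to 1755 bp. Of 8 proteases of lymphocyte and mast cell granules, 0 were marked in any line, which includes GZMB and the tryptase genes TPSAB1 and TPSB2.

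CTSC, which encodes the dipeptidase that activates the serine proteases, was marked in all 4 lines, with peaks of 6288 bp in K562, 4219 bp in OCI-AML3, 4023 bp in Molm13 and 3315 bp in HL-60. Together with 6 genes of inhibitors it made a list of 7, of which 1 was marked in HL-60, 3 each in Molm13 and K562 and 5 in OCI-AML3. SERPINB1, an inhibitor held in the neutrophil cytosol, had no TSS peak in HL-60 and peaks of 1760, 1648 and 3570 bp in the other lines. Of 6 genes of factors known to act at granule genes, all 6 were marked in the 3 AML lines and 3 in K562. CEBPA, CEBPE and GFI1 had no TSS peak in K562, whereas SPI1 (the gene of PU.1), MYB and RUNX1 were marked there too, MYB with a peak of 20680 bp.

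For each gene, the 2 protein-coding genes with the nearest set of 4 fold enrichment percentiles were found, with 0 for no peak and the distance taken over the 4 lists. For MPO these were ARMH1 (5.05 percentile points away) and GFI1 (11.3), the gene of a transcriptional repressor that acts in the granulocyte line. For CTSG they were RGS18 (3.72) and CASP4 (6.38), for ELANE TNFSF13 (13.0) and HENMT1 (13.6), and for PRTN3 HENMT1 (15.1) and H2AC16 (16.1). For AZU1 they were MTTP and TRMT10A (both 1.42), for CFD LAMTOR4 (3.18) and PLEKHA3 (4.28), for SRGN MMAA (4.50) and SETD4 (4.77), and for LYZ AMMECR1L (2.08) and CEP70 (2.96). The K562 values used for AZU1 and PRTN3 were those of peaks that overlapped no start of these genes, and for AZU1 of the peak over PLPPR3. The Molm13 value of AZU1, PRTN3 and ELANE was that of 1 shared peak. MTTP and TRMT10A had the same percentile as each other in each list, so they may not be 2 separate matches. The likeness is over 4 values, 1 per line, and is a description only.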

How the data were processed

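ChIP-seq libraries for H3K27ac from 4 cell lines were used, 1 library per line. Per the labels' processing notes the authors used Trim Galore 0.4.5, Bowtie2 2.3.4, MACS2 2.1.1 and deepTools, with the hg38 build. The study's methods state that uniquely mapped reads were kept and broad peaks were called at a q-value of 0.05. The control library given to the caller is not given in the sources used here. The deposited lists hold each peak's position, a ratio, the fold enrichment of the signal over the background nearby, and −log10 values for its p-value and q-value, all computed by the authors. The largest q-value in a list lay between 0.0947 and 0.0995, above the stated limit. Read numbers, and thus depth, were unknown.

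Peaks on chromosomes 1 to 22, X and Y were used, so that 60 peaks of K562, 35 of OCI-AML3, 70 of Molm13 and 42 of HL-60 stayed out, and every contig name of the lists was in the hg38 reference. Peaks were placed by GENCODE v44, within 500 bp of any TSS of a gene or within 50 kb, with the Ensembl canonical transcript as the canonical start. Positions are 1-based. Coverage was counted in 100 kb around the canonical start. Percentiles are shares of the compared peaks or genes with a lower value. Promoters were the 250 bases before the canonical start, and those of PRTN3, AZU1, CTSG and CFD had the same start in the RefSeq promoter table. The promoter of 1 of the 8 genes was left out of the motif and sequence comparison and is not reported here. The 8 genes, the other gene lists and the motifs were chosen with earlier results of these data known. All 8 genes are named, as are genes with a TSS peak within 50 kb of them and the 2 genes of nearest pattern. Alternatives were other q-value limits, equal numbers of peaks, merging within 1 kb, other distances, the canonical TSS alone and percentiles among all peaks. The procedure was tested on simulated data, where 400 of 400 planted peaks were placed right. It gave the same number of genes with a TSS peak as bedtools 2.31.1 in 4 of 4 lists. Python 3.11.15, NumPy 2.4.6, pandas 2.3.3, pysam 0.24.0 and Matplotlib 3.10.9 were used. With 1 library per line no test between lines was possible, no SD exists and no p-value was computed.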

Additional observations from a re-analysis of the deposited data

How the results depend on the processing

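With 1 library per line and unknown depth, a missing peak cannot be told from one too weak to be called. Of 92 recomputed counts and kb sums, 78 stayed within 1.5 times the reported value. Those that moved were as follows. The members with a TSS peak in K562 fell from 5 to 3 when the peak had to overlap the TSS and to 3 at the canonical TSS only. Peaks within 50 kb of the 8 genes fell with a q-value below 0.001 from 29 to 18 in HL-60, from 29 to 18 in Molm13 and from 24 to 14 in K562, and with equal numbers of peaks to 19 in Molm13. With windows of 20 kb they numbered 9 in K562, 12 in Molm13, 18 in HL-60 and 18 in OCI-AML3 (31 at 50 kb), and the kb under peaks went from 76.5 to 48.7 in HL-60, from 168.5 to 108.0 in Molm13 and from 62.0 to 27.2 in K562. With a q-value below 0.001 the kb under peaks from AZU1 to CFD in HL-60 went from 11.0 to 6.1. The windows are smaller and the limits stricter by construction, which lowers such counts. Of 116 recomputed percentiles, 60 moved by more than their counting interval. Merging shifted them by -1.07 to 0 points, and taking all peaks of a list as the comparison raised them by 0.01 to 33.4 points. No paired analysis was possible because each line had 1 library.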

Other observations

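The list for dCas9, from K562 cells with single guide RNAs against the LTR2B family of endogenous retroviral repeats, was looked up at the 8 genes. It held 393 peaks on chromosomes 1 to 22, X and Y, and 0 of the 8 genes had one within 50 kb of a TSS. The nearest dCas9 peak lay 220 kb from SRGN, and those nearest to the other 7 genes lay 2400 kb (CTSG) to 7860 kb (MPO) away.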
